A study of Mus musculus with 4 samples.

Results

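Genes of macrophages and monocytes were followed through 4 RNA-seq libraries of mouse pre-B cells, the marrow precursors that carry a rearranged immunoglobulin heavy chain. The set was given by name and holds 10 of the 23284 gene symbols measured. The tissue macrophage genes are C1qa, C1qb, C1qc, Cd5l and Vcam1, and the monocyte genes are Lyz2, Lst1, Fcer1g, Tyrobp and Cd68. All 10 names were found in all 4 libraries. The set was selected on its FPKM levels in these same libraries, so the values below describe it and test nothing.

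All mice were C57BL/6J. The libraries came from wild-type marrow (WT) and marrow transgenic for STAP-2 (Tg), an adaptor protein encoded by Stap2, both at steady state with the code 0901 in their titles, and from marrow of wild type and of a STAP-2 knockout (KO, so labelled), both taken 1 month after transplantation (Tx) with the code 0826. Each group is 1 library, so no difference has a replicate check. The promoter of the transgene, the deleted part of Stap2, the age and number of the mice, the recipients and any host cells left in them, and the way the pre-B cells were isolated are unknown from the labels. Below, the groups are called steady wild type, transgenic, transplanted wild type and labelled knockout, and 4 values in a row follow that order.

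C1q is the recognition unit of the classical complement pathway. It is assembled from A, B and C chains, each the product of its own gene, and unlike most complement proteins it is made mainly by macrophages and dendritic cells rather than by the liver. Marrow macrophages surround erythroblasts and clear expelled nuclei and dying cells, including the many B cell precursors that fail selection. Monocytes, which leave the marrow for the blood, share lysozyme with neutrophils, and the ITAM adaptors encoded by Fcer1g and Tyrobp with neutrophils and natural killer cells, so these genes do not mark monocytes alone.

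C1qa, C1qb and C1qc lie side by side on the minus strand of chromosome 4 (136880129 to 136898803, GRCm38, 18.7 kb in all). Because the C1q genes shared their lowest and their highest library, stretches upstream of C1qb and C1qc are shown, with those of Cd5l and of Lyz2, the monocyte gene with the most reads, for contrast. The letters come from RefSeq's promoter table on GRCm38.p6, which held 6 of the 10 genes. They run 5′ to 3′ on the gene's strand, and each stops before the first annotated transcribed base. Capitals mark GAGGAA or its reverse complement TTCCTC, the purine box that the myeloid transcription factor PU.1 can bind.
C1qb, chr4:136886201-136886450, minus strand: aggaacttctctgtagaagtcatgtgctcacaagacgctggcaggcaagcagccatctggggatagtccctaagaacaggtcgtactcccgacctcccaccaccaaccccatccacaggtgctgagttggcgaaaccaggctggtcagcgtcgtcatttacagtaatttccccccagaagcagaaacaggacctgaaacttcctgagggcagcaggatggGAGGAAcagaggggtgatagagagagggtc
C1qc, chr4:136893066-136893164, minus strand: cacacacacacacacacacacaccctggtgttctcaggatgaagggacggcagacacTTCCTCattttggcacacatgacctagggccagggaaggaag
Cd5l, chr3:87357631-87357880, plus strand: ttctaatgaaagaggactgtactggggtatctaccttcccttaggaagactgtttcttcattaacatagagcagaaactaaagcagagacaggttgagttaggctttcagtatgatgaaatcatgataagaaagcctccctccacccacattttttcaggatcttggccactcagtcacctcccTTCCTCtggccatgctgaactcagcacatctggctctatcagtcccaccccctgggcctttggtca
Lyz2, chr10:117282322-117282522, minus strand: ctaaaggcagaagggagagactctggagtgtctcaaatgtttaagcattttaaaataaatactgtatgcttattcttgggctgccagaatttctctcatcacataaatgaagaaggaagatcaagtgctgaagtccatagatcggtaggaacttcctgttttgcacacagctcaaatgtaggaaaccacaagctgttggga
In the 250 bases before the RefSeq start, this box was found 1 time in each of C1qb, C1qc, Cd5l and Cd68 and in neither Lyz2 nor Fcer1g. Of 32851 windows of the same length 23.3% hold it on either strand. TTGCNNAA, a C/EBP-type motif, was found 1 time and TGANTCA, an AP-1-type motif, 2 times upstream of Cd68, and neither was found in the other 5 windows, against 9.56% and 6.75% of all windows. The stretches shown hold neither of the other motifs, so no overlap arose in them. A match is a description of the letters and not a bound site.

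Depth was estimated from the FPKM steps of single reads at about 7340000, 7280000, 7770000 and 8700000 reads. FPKM is a level per transcript length and library size, and the intervals given with it are 95% exact intervals of the estimated reads, which cover counting error only. Stap2 was at 0.212 FPKM (2 reads), 0.536 (5 reads), 0 and 0.179 (2 reads), too few to check either label. The transgenic and the knockout direction therefore both rest on the labels. B lineage genes were high throughout: the 12 listed summed to between 6792 and 7645 FPKM, with Cd79a between 1624 and 1952, Cd79b between 1466 and 1764 and Vpreb3 between 1291 and 1492. The surrogate light chain genes, which early pre-B cells express, were lowest in steady wild type, as the C1q genes were: Vpreb1 was at 7.31, 34.4, 30.2 and 38.6 FPKM and Igll1 at 14.6, 39.9, 36.4 and 49.7. Ms4a1, a gene of later B cells, was at 156, 171, 412 and 263. The part of these stages in the members' levels was not tested. The 5 monocyte genes summed to between 79.6 and 168 FPKM, and the 5 tissue macrophage genes to between 4.32 and 22.4.

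The 3 C1q chains were lowest in steady wild type and highest in transplanted wild type. C1qa (chromosome 4, 136895917 to 136898803), the A chain gene, gave 0.468 FPKM for steady wild type, 3.46 for the transgenic library, 7.08 for transplanted wild type and 2.77 for the library labelled knockout. These levels rest on 3, 21, 46 and 20 reads. The interval of steady wild type (0.102 to 1.44 FPKM) did not reach those of the other libraries, of which the lowest bound was 1.69, and the intervals of the transgenic library and the library labelled knockout overlapped.

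C1qb (chromosome 4, 136880129 to 136886187), the B chain gene, was at 1.12, 4.83, 5.74 and 2.56 FPKM in the same order of libraries, from 7, 31, 39 and 20 reads. Its transgenic level (3.30 to 6.89) overlapped that of transplanted wild type (4.07 to 7.82), and steady wild type (0.437 to 2.24) overlapped the library labelled knockout (1.60 to 4.04). C1qc (chromosome 4, 136889804 to 136893065), the C chain gene, was at 1.45, 2.76, 6.70 and 2.86 FPKM, from 11, 20, 52 and 25 reads. Here transplanted wild type (5.04 to 8.84) lay above the other libraries, and the intervals of those overlapped one another, with steady wild type at 0.754 to 2.70 FPKM. Fewer cells of a type and less RNA per cell cannot be told apart in such bulk libraries.

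Per length, the chains were close to equal after transplantation. C1qa, C1qb and C1qc made up 36.3%, 29.4% and 34.3% of the summed C1q FPKM in transplanted wild type. The corresponding shares were 33.8%, 31.3% and 34.9% in the library labelled knockout and 31.3%, 43.7% and 25.0% in the transgenic library. In steady wild type they were 15.4%, 36.8% and 47.8%, but only 21 reads stand behind them, and the share of C1qa in those reads has a Clopper-Pearson interval of 3.05% to 36.3%. The uneven chains of that library were thus not resolved at this depth.

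Neither other tissue macrophage gene had the lowest and highest library of the C1q genes. Cd5l (chromosome 3, 87357881 to 87371073), which encodes a scavenger receptor family protein secreted by tissue macrophages, was the lowest member in all libraries but steady wild type, where C1qa and Lst1 were lower. Its levels were 0.597, 0.376, 1.13 and 0.692 FPKM, from 8, 5, 16 and 11 reads. The transgenic library was its lowest, and the intervals of all 4 libraries overlapped. Vcam1 (chromosome 3, 116109949 to 116129688), an adhesion molecule of marrow macrophages that stromal and endothelial cells also carry, was at 0.684, 1.94, 1.78 and 1.19 FPKM, from 16, 46, 45 and 34 reads. Its steady-state wild type (0.382 to 1.09) lay below the transgenic library (1.42 to 2.59) and transplanted wild type (1.30 to 2.38). An antisense gene overlaps Vcam1, and whether the counting used strand is not given.

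Among the monocyte genes, transplanted wild type was the highest library for all 5, while the lowest differed. Lyz2 (chromosome 10, 117277331 to 117282321), the gene of myeloid lysozyme, was at 30.7, 52.0, 76.2 and 27.1 FPKM, from 249, 419, 655 and 261 reads. The 2 low libraries overlapped, and the others stood apart from them and from each other. Lyz1, a close copy next to Lyz2 with which reads may be shared, was at 2.97, 6.77, 8.17 and 3.38 FPKM. Fcer1g (chromosome 1, 171229572 to 171234365), the gene of the common gamma chain that carries the signal of Fc receptors, was at 4.85, 10.7, 13.8 and 4.86 FPKM, from 17, 36, 50 and 20 reads. Its high and low libraries were those of Lyz2, with overlap between the transgenic library (7.47 to 14.8) and transplanted wild type (10.3 to 18.3).

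Lst1 (chromosome 17, 35185095 to 35188439), a small transmembrane protein gene of myeloid cells, was listed at 0 in steady wild type, where 3 reads would be 1.99 FPKM. It was at 2.65 FPKM in the transgenic library, 8.68 in transplanted wild type and 2.77 for the library labelled knockout, from 4, 14 and 5 reads. Its transcript of 415 nt makes each read weigh heavily on this scale. Cd68 (chromosome 11, 69664213 to 69666153), the gene of a lysosomal glycoprotein of monocytes and macrophages alike, was at 4.60, 3.78, 8.70 and 4.03 FPKM from 34, 28, 69 and 36 reads. Transplanted wild type stood apart, with a lower bound of 6.78 FPKM against upper bounds of 5.45 to 6.35 for the other 3 libraries, which overlapped.

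Tyrobp (chromosome 7, 30413760 to 30417585), which encodes the ITAM adaptor DAP12, varied least. It stood at 49.2, 51.9, 60.2 and 40.8 FPKM, from 128, 134, 165 and 126 reads, so that the highest library was 1.47 times the lowest. For Lyz2, Fcer1g and Cd68 the corresponding figures were 2.81, 2.84 and 2.30, and for C1qa, with 3 reads in its lowest library, 15.1. Tyrobp was the highest of the 10 on the FPKM scale in steady wild type and for the library labelled knockout, and Lyz2 in the transgenic library and transplanted wild type, where Tyrobp in the transgenic library lay only just below it.

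**Figure D1:**
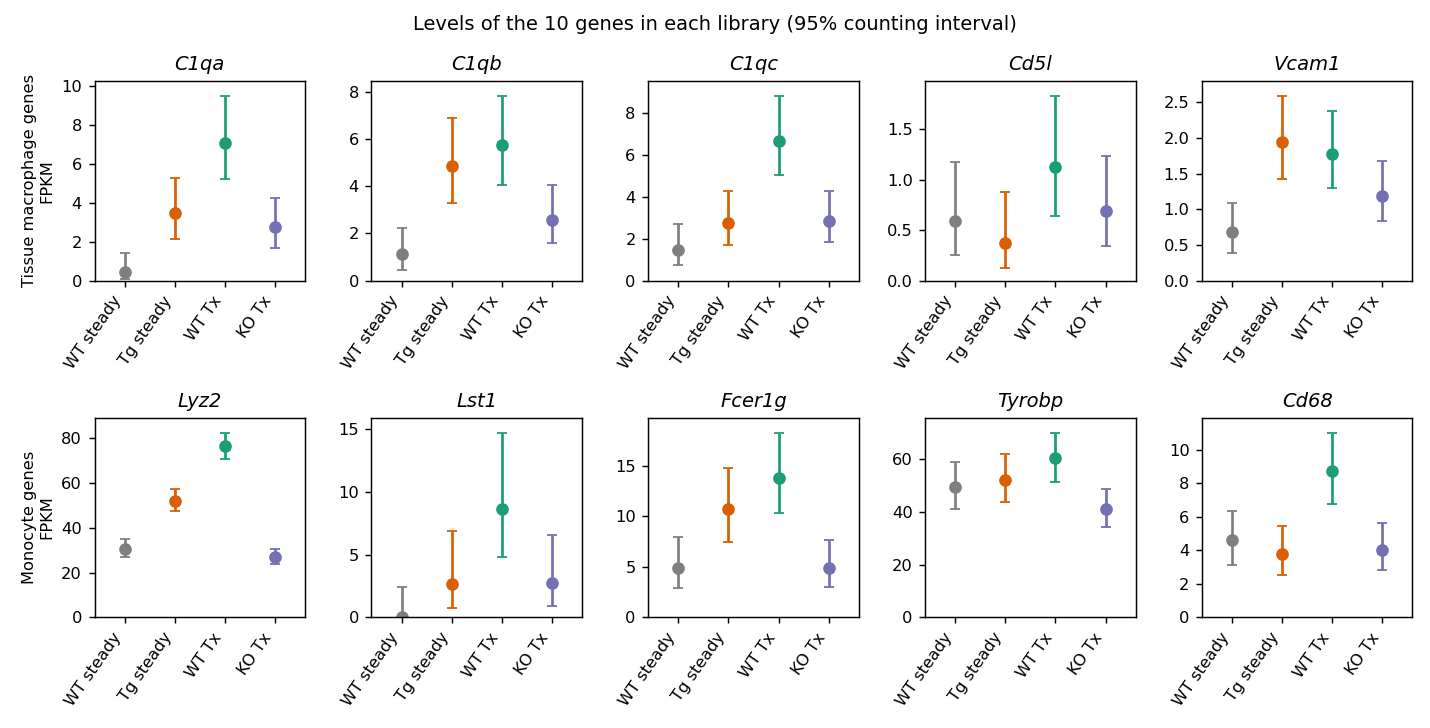
FPKM (vertical axes, each from 0) of each gene in the 4 libraries, with points for single libraries and bars for the 95% counting interval. The C1q genes and Lyz2 peak in transplanted wild type, Lst1 is listed at 0 in steady wild type, and Tyrobp stays between 40.8 and 60.2.

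Transgenic against wild-type marrow, both at steady state, asks how these genes differ in pre-B libraries with the transgene, as labelled. In the transgenic library the summed tissue macrophage genes were higher by more than the summed monocyte genes. With Cd68 counted among the former and Vcam1 left out this difference was within counting error: the macrophage share of the reads of both groups was then 13.8% (10.8% to 17.3%) in wild type and 15.0% (12.5% to 17.9%) in the transgenic library. The summed tissue macrophage reads were 45 for wild type and 123 for the transgenic library, 2.76 times as many per read sequenced (1.94 to 3.97). The monocyte sum was 428 and 621 reads, a ratio of 1.46 (1.29 to 1.66). Lyz2 carried most of the latter difference in reads, and the other 4 monocyte genes together had a ratio of 1.14 (0.926 to 1.40). Of their reads, Tyrobp gave 128 of 179 in wild type and 134 of 202 in the transgenic library. These 4 genes did not move alike: Fcer1g was at 2.21 times (1.17 to 4.05) and Cd68 at 0.822 times (0.485 to 1.41) its wild-type level.

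C1qa had a ratio of transgenic to wild-type FPKM of 7.39 (2.11 to 37.0), C1qb of 4.32 (1.93 to 12.0) and Vcam1 of 2.84 (1.61 to 5.49). Lyz2 was 1.69 times (1.45 to 1.99) and Fcer1g 2.21 times (1.17 to 4.05) its wild-type level. Lst1, set against the value of 3 reads in wild type, was at least 1.33-fold higher, but the exact interval of its ratio, from 4 reads against 0, began at 0.666 and so included 1. For C1qc (1.90, 0.837 to 4.24), Cd5l (0.630, 0.162 to 2.18), Tyrobp (1.06, 0.822 to 1.36) and Cd68 (0.822, 0.485 to 1.41) the interval included 1 as well. The largest and the smallest ratio of the tissue macrophage genes thus belonged to C1qa and Cd5l, both among the members with the fewest reads.

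On the log2(FPKM + 1) scale, 3 of the 10 members were at least 2-fold higher in the transgenic library, namely C1qa, C1qb and Lst1, and none was 2-fold lower. With Lst1 at the value of 3 reads in wild type its difference was 0.28 and the count was 2. Of the 10843 genes that reached 1 FPKM in at least 1 of both, 1.22% were 2-fold higher and 0.682% lower. Fcer1g lay just under the 2-fold line. The median difference was 0.80 for the tissue macrophage genes and 0.74 for the monocyte genes, with 4 of 5 higher in each. Over all 10843 genes it was -0.02, with 46.7% higher. At that value of Lst1 the monocyte median was 0.28 too, since Lst1 became the middle gene.

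Setting the library labelled knockout against transplanted wild type asks how these genes differ with loss of STAP-2, as labelled, after transplantation. All 10 members were lower in the library labelled knockout, while 44.0% of the 10790 genes that reached 1 FPKM were higher there. The tissue macrophage genes had 198 and 110 summed reads, 2.02-fold lower (1.59 to 2.57), and the monocyte genes 953 and 448, 2.38-fold lower (2.13 to 2.67). The C1q genes alone were 2.36-fold lower (1.74 to 3.22), and the 4 monocyte genes other than Lyz2 were 1.78-fold lower (1.48 to 2.15).

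C1qa was 2.56-fold lower (1.49 to 4.60), C1qb 2.24-fold (1.24 to 3.95) and C1qc 2.35-fold (1.42 to 3.92), so that the chains had near-equal differences. Lyz2 was 2.81-fold (2.43 to 3.26), Fcer1g 2.83-fold (1.64 to 4.97), Lst1 3.14-fold (1.07 to 11.1) and Cd68 2.16-fold (1.41 to 3.31) lower. Tyrobp had the smallest difference of the monocyte genes, at 1.47-fold lower (1.16 to 1.86). The intervals of Cd5l (1.63-fold lower, 0.710 to 3.88) and Vcam1 (1.49-fold lower, 0.929 to 2.39) included 1.

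C1qa, Lyz2, Lst1 and Fcer1g, 4 of the 10, were at least 2-fold lower on the log2(FPKM + 1) scale, with C1qc just short of the line. Of all 10790 genes 1.18% were 2-fold lower and 0.667% higher (1.84% in all), or 112 and 120 genes in place of 127 and 72 when both libraries were rescaled to the same sum. The medians were -0.92 for the tissue macrophage and -1.33 for the monocyte genes, against -0.03 over all genes.

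Transplanted and steady-state wild type were also set side by side, although transplantation and the code in the titles cannot be told apart there. All 10 genes were higher in transplanted wild type, beside 45.9% of 10835 genes. The tissue macrophage genes had 4.16 times (3.0 to 5.88) and the monocyte genes 2.10 times (1.88 to 2.36) the summed reads per read sequenced. C1qa had a ratio of 15.1 (4.66 to 72.8), C1qb of 5.13 (2.33 to 13.9) and C1qc of 4.62 (2.30 to 9.49). Lst1 was at least 4.35-fold higher against the value of 3 reads, with an exact interval from 3.13 upward, and Lyz2 2.48 times (2.14 to 2.89) its steady-state level.

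For Cd5l (1.89, 0.763 to 5.10) and Tyrobp (1.22, 0.961 to 1.55) the interval of this ratio included 1. The members at least 2-fold higher were C1qa, C1qb, C1qc, Lyz2, Lst1 and Fcer1g, 6 of the 10, beside 1.67% of 10835 genes, with 0.628% lower. Each wild-type library is also the base of a genotype comparison, so the 3 comparisons share libraries. In the first the base is the lowest library of most members, and in the knockout comparison it is the highest of all but Vcam1.

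**Figure D2:**
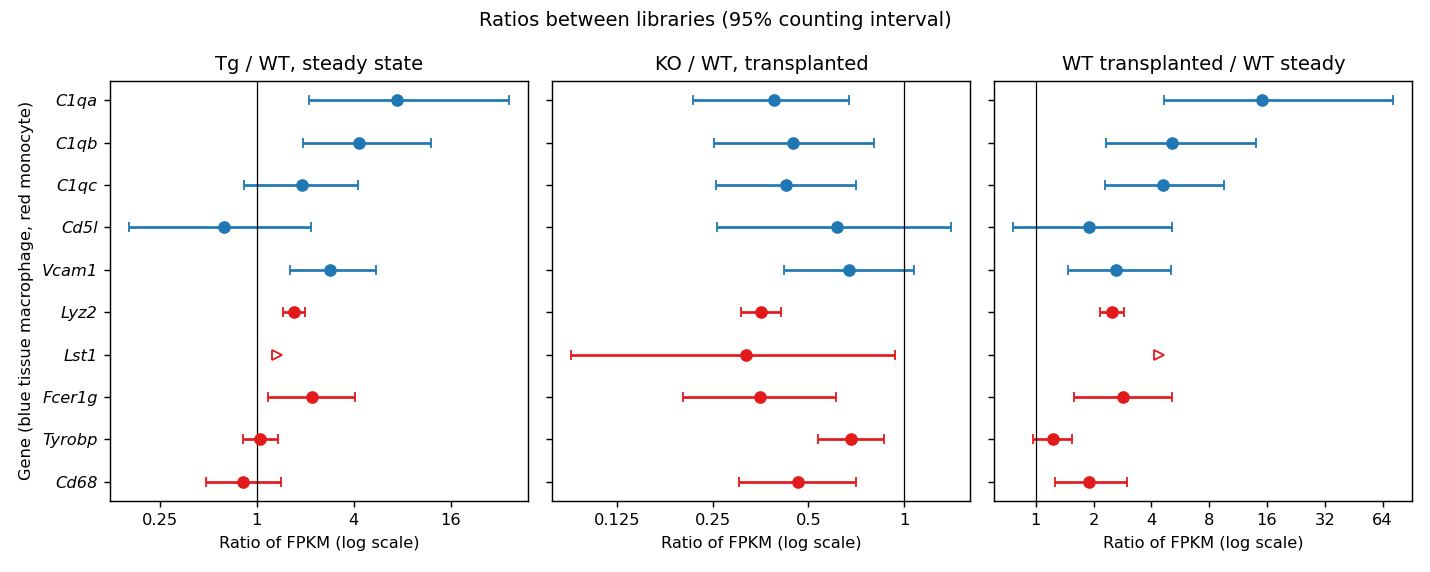
Ratios of FPKM between libraries for each gene (horizontal axes, log scale, with a line at 1), with 95% counting intervals. Open arrowheads give Lst1 as a lower bound against 3 reads where the base library was at 0, and the interval of Cd5l crosses 1 in all 3 panels.

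The balance of tissue macrophage to monocyte reads was lowest in steady wild type, and how far it stood from the transgenic library rested on where Cd68 and Vcam1 were counted. In steady wild type the tissue macrophage genes gave 9.51% of the reads of both groups (45 of 473, Clopper-Pearson 7.02% to 12.5%). The share was 16.5% in the transgenic library (13.9% to 19.4%), 17.2% in transplanted wild type (15.1% to 19.5%) and 19.7% in the library labelled knockout (16.5% to 23.3%). These 3 overlapped, although the summed reads behind them ran from 558 to 1151.

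With the C1q genes alone against the monocyte genes, the shares were 4.68% (2.92% to 7.06%), 10.4% (8.22% to 12.9%), 12.6% (10.7% to 14.7%) and 12.7% (9.92% to 15.9%). Steady wild type was again the low library. Leaving out Vcam1 and Lyz2, the genes of their groups with the most reads over the 4 libraries, gave 13.9%, 27.6%, 33.9% and 28.9%, in which steady wild type was lowest too. With Cd68 counted as a macrophage gene and Vcam1 left out, the shares were 13.8% (10.8% to 17.3%), 15.0% (12.5% to 17.9%), 20.1% (17.7% to 22.6%) and 21.4% (17.9% to 25.1%). On that count steady wild type and the transgenic library overlapped, and only the transplanted libraries lay above steady wild type. In each grouping the library labelled knockout and transplanted wild type had intervals of the balance that overlapped.

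**Figure D3:**
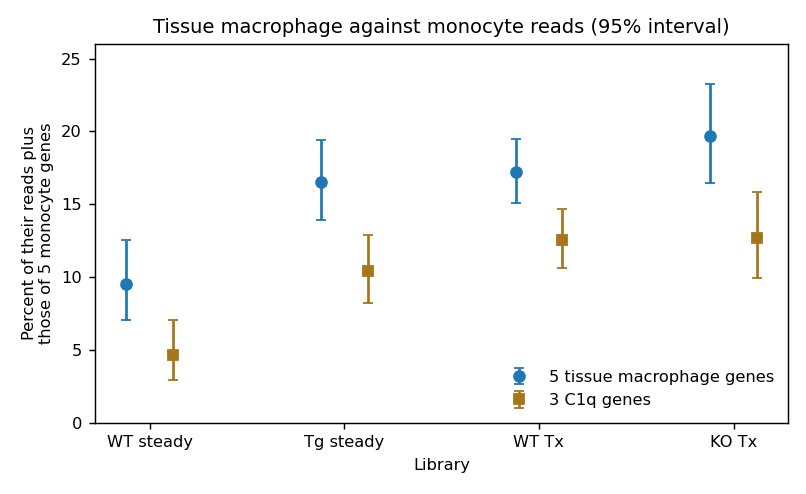
Reads of the 5 tissue macrophage genes (circles) or the 3 C1q genes (squares) as a percent of those reads plus the reads of the 5 monocyte genes, by library, with 95% intervals. Steady wild type, at 9.51% and 4.68%, lies below the other libraries in both.

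In a list of 22 other tissue macrophage genes, 6, 7, 11 and 6 reached 1 FPKM. Timd4, Vsig4 and Marco, receptors of resident macrophages in other tissues, were listed at 0 in all libraries. Csf1r, the receptor for the macrophage growth factor, was at 0.632, 0.825, 2.78 and 1.00 FPKM. Axl, a receptor for dying cells, was at 0.308, 0.681, 1.56 and 0.403. Both were highest in transplanted wild type, where Csf1r was 4.39 times (2.58 to 7.91) its steady-state level.

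Apoe, the gene of apolipoprotein E, was by far the highest of the list and had another order, at 45.3, 88.5, 48.1 and 28.5 FPKM. Its transgenic library was 1.96 times wild type (1.73 to 2.21), and transplanted and steady-state wild type lay within counting error (1.06, 0.925 to 1.22). Mpeg1, which encodes a pore-forming protein of macrophages, was at 3.47, 6.86, 8.34 and 6.91 FPKM, and the haem oxygenase gene Hmox1 at 3.49, 2.92, 4.15 and 2.44. Aif1, a calcium-binding protein gene of macrophages, was at 0.409, 1.44, 2.71 and 0.690. Of the 22 genes, 13 were higher and 5 lower in the transgenic library than in wild type, 18 were lower and 1 higher in the library labelled knockout than in transplanted wild type, and 17 were higher and 2 lower in transplanted than in steady-state wild type. The median differences of all 22 were 0.05, -0.34 and 0.40 on the log2(FPKM + 1) scale. Over all genes that reached 1 FPKM, 46.7%, 44.0% and 45.9% were higher in these comparisons. The counts of the list also took in genes below that level.

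Most of a second monocyte list of 20 genes had the directions of the members, while 46.7%, 44.0% and 45.9% of all genes were higher. In the transgenic library 14 were higher and 6 lower than in wild type, with a median of 0.31. In the library labelled knockout 17 were lower and 3 higher than in transplanted wild type, with a median of -0.38. In transplanted wild type 18 of 20 were higher than in steady-state wild type, with a median of 0.40. These counts took in genes below 1 FPKM, which the shares of all genes left out. Of the listed genes that reached 1 FPKM, 10 of 13, 2 of 13 and 12 of 14 were higher in the 3 comparisons. Fcgr3, a low-affinity Fc receptor that signals through the product of Fcer1g, was at 1.19, 2.64, 5.07 and 1.21 FPKM. Ctss, the gene of the protease cathepsin S that B cells also express, was at 131, 155, 207 and 137, and Ms4a6c at 20.4, 34.6, 28.2 and 22.5. Ms4a4c was at 13.1, 23.2, 29.9 and 19.1 FPKM, and the interferon-induced genes Ifitm3 and Ifitm6 were at 4.03, 10.6, 13.2 and 7.85 and at 5.74, 8.26, 10.5 and 3.46. F13a1, the gene of a coagulation factor subunit made by monocytes, went the other way: it was at 2.36, 1.65, 1.45 and 2.52 FPKM, with a ratio of 1.74 (1.19 to 2.59) of the library labelled knockout to transplanted wild type and of 0.615 (0.404 to 0.914) of transplanted to steady wild type. Fn1, the fibronectin gene, was at 1.09, 0.339, 0.748 and 0.483, with a transgenic to wild-type ratio of 0.310 (0.178 to 0.519).

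The other genes of the early classical pathway were near 0. C1rb was listed at 0 in all libraries, and C1ra, C1s, C2, C4a and C4b were below 1 FPKM in all of them. The central component gene C3 was at 1.33, 3.49, 4.53 and 1.26 FPKM, with a transgenic to wild-type ratio of 2.63 (1.87 to 3.74) and a ratio of 0.279 (0.201 to 0.380) of the library labelled knockout to transplanted wild type. Its high and low libraries were those of Fcer1g. The complement receptor gene Cr2, which B cells carry, was at 6.16, 8.46, 11.6 and 7.0 FPKM, and Cd55, a membrane inhibitor of complement, at 94.0, 94.6, 125 and 74.5. The highest of the list was Cd93, a surface protein of B cell precursors once taken for a C1q receptor, at 156, 109, 107 and 115 FPKM. Its transgenic library was at 0.701 (0.677 to 0.727) of wild type, against the direction of the C1q genes. The inhibitor gene Cr1l was at 53.8, 54.4, 55.1 and 43.1, and Serping1, the gene of the C1 inhibitor, at 0.423, 1.11, 0 and 0.0714, with 13 reads at most. Over the 20 genes the medians were 0.11, -0.21 and 0.03.

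The list of receptors and kinases that work with the adaptors of Fcer1g and Tyrobp held 21 genes. Of these 13 were higher and 6 lower in the transgenic library than in wild type, beside 46.7% of all genes higher. In the library labelled knockout 19 were lower and 2 higher than in transplanted wild type, beside 44.0% of all genes higher. These counts took in genes below 1 FPKM, which the shares of all genes left out. Of the listed genes that reached 1 FPKM, 10 of 13 and 1 of 10 were higher in these comparisons. Syk, which binds phosphorylated ITAMs in B cells and myeloid cells, was at 708, 601, 569 and 608 FPKM, Lyn at 195, 190, 184 and 176, and Plcg2 at 93.8, 93.8, 106 and 99.3. Trem3, a myeloid receptor that pairs with the product of Tyrobp, was at 0.347, 4.2, 2.95 and 0.439 FPKM, from 2, 24, 18 and 3 reads. Fcgr4, an Fc receptor that needs the common gamma chain, was at 0.524, 2.38, 1.36 and 0.331. For both, the transgenic library was the highest, unlike Fcer1g and Tyrobp. The reads were few, at 24 against 18 in transplanted wild type for Trem3 and 18 against 11 for Fcgr4.

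Neutrophil genes had the directions of most members, while 46.7%, 44.0% and 45.9% of all genes were higher in the 3 comparisons. All 15 listed were higher in the transgenic library than in wild type, 14 of 15 were lower in the library labelled knockout than in transplanted wild type, and all 15 were higher in transplanted than in steady-state wild type. Their summed FPKM was 776, 1857, 1716 and 662, and none was at 0 in any library. S100a8 was at 293, 720, 613 and 261 FPKM, highest in the transgenic library, whereas Mpo, a primary granule gene that monocyte precursors also express, was at 13.8, 19.9, 38.8 and 11.4, highest in transplanted wild type as Lyz2 was. S100a9 was at 273, 670, 625 and 227 FPKM, Ngp at 66.1, 140, 129 and 46.1, and Retnlg at 10.6, 45.7, 26.4 and 11.5, in each case highest in the transgenic library. For S100a9 (1506 and 1499 reads) and Ngp (1029 and 1011 reads) the transgenic library stood close to transplanted wild type, and no interval was computed for that difference. Ctsg, a primary granule gene like Mpo, was at 3.44, 6.24, 15.4 and 4.2. The part of neutrophil RNA in Lyz2, Fcer1g, Tyrobp and Lst1 was not tested.

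Among genes of the erythroblasts that marrow macrophages hold, those that reached 1 FPKM in some library had another order. The 11 listed summed to 176, 122, 104 and 119 FPKM, of which Tfrc, which dividing B cell precursors express too, gave 121, 114, 93.0 and 104. Hba-a1, which has near-identical copies, was at 32.6, 3.89, 4.38 and 8.17 FPKM and Slc4a1 at 1.45, 0.190, 0.208 and 0.106. Hbb-b2 was at 18.3, 2.05, 4.10 and 5.72 and Alas2 at 1.5, 0.239, 0.672 and 0.533. These 4 were highest in steady wild type, the library with the lowest C1q levels.

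Stromal and endothelial genes were set beside Vcam1. Cxcl12, the chemokine of marrow stroma, was at 4.26, 7.65, 0.348 and 0.155 FPKM, higher in the steady-state libraries, which also differ in title code. Of the 11 listed genes 10 were lower and 1 higher in transplanted than in steady-state wild type. In the transgenic library 8 were higher and 3 lower than in wild type. In the library labelled knockout 6 were higher and 4 lower than in transplanted wild type. Of all genes that reached 1 FPKM, 45.9%, 46.7% and 44.0% were higher. The counts of the list also took in genes below that level. Of the listed genes that reached it, 0 of 3, 2 of 3 and 0 of 1 were higher in these comparisons. Vcam1 was at 0.684, 1.94, 1.78 and 1.19 FPKM. The endothelial gene Cdh5 ranged from 0.512 FPKM in transplanted wild type to 1.42 in the transgenic library. The 11 listed genes summed to between 87.7 and 97.7 FPKM, of which Pecam1, also expressed by leukocytes, gave 84.7 to 90.7. The part of stroma in Vcam1 was not tested.

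Dendritic markers other than Irf8, T and natural killer markers, and mast cell and basophil markers were low. The dendritic list summed to between 121 and 147 FPKM, the mast cell and basophil list to between 2.25 and 8.73, and the T and natural killer list to between 5.91 and 11.6 FPKM, with Nkg7 at 2.25, 2.50, 6.39 and 1.90, again highest in transplanted wild type. Il2rb was at 1.48, 1.05, 1.55 and 0.971 and Cd3g at 1.17, 0.338, 0.949 and 0.424. In the dendritic list Irf8, which B lineage cells express, gave 119 to 145 FPKM, and every other member was below 1, Xcr1 at 0.389 to 0.596 and Siglech at 0 to 0.589. The basophil protease gene Mcpt8 was at 1.30, 0, 3.27 and 4.2 FPKM, and Fcer1a, listed at 0 in 3 libraries, at 1.13 in the library labelled knockout. Hdc was at 0.314, 2.22, 1.72 and 1.22, Kit at 0.220, 0.971, 0.520 and 0.720, and Cpa3 at 0.110, 0.110, 0.725 and 1.20. In the library labelled knockout Fcer1g was at 4.86 FPKM, near its own lowest level of 4.85 in steady wild type.

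**Figure D4:**
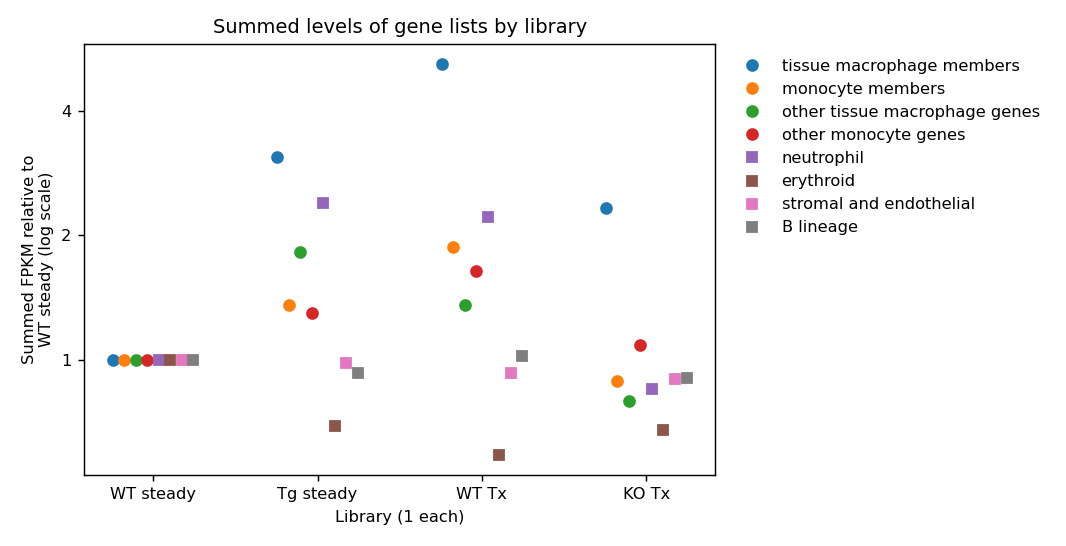
Summed FPKM of 8 gene lists in each library relative to steady wild type (vertical axis, log scale), with circles for macrophage and monocyte lists and squares for other cell types. The tissue macrophage members spread most, from 4.32 to 22.4 FPKM, the neutrophil list follows, and the B lineage list stays between 6792 and 7645.

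The genes whose pattern over the 4 libraries lay nearest to the mean C1q profile were sought among 394 genes. These reached 2 FPKM in some library and ranged over at least 1 on the log2(FPKM + 1) scale. Symbols beginning with Gm and a number, Rik, Mir and Snor symbols, and immunoglobulin or T cell receptor segments were left out. Likeness was the root mean square distance of centred log2(FPKM + 1) values. Serpina3g, a serine protease inhibitor gene, was nearest at 0.05, with levels of 13.4, 33.9, 57.8 and 28.7 FPKM. It was followed by Slfn1 (0.17), Ifitm3 (0.17), Ifi30 (0.19), Cebpb (0.20), Nubpl (0.21), Wnt10b (0.22) and Ifit3 (0.22). The C1q genes themselves lay at 0.19 to 0.22 from their own mean.

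For the mean profile of the 5 monocyte genes the nearest were Aif1 (0.04), at 0.409, 1.44, 2.71 and 0.690 FPKM, and Id2 (0.08), at 9.49, 13.7, 23.1 and 10.5. Olfr99 (0.10), Ltb (0.13), G0s2 (0.13), Fcgr3 (0.13), Igsf6 (0.15) and Tnni2 (0.15) came next. Of the members, Lyz2 lay at 0.19 and Fcer1g at 0.20 from that mean, Cd68 at 0.33, Tyrobp at 0.39 and Lst1 at 0.73. With 4 libraries many genes share a pattern, and a small distance describes no more than these values.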

How the data were processed

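Per the labels' protocols, RNA came from a miRNeasy kit, and a TruSeq stranded mRNA kit made the libraries. Per the submitters' processing notes the build was mm10 and the tools Cufflinks 2.2.1, TopHat2 2.0.13, SAMtools 0.1.19 and Bowtie2 2.2.3, with no role or order. Whether counting used strand, and which annotation and scaling between libraries, is not given in the sources used here. FPKM is how the deposited values were read, since they are not whole and low genes lie on steps that scale with transcript length. The headers name no unit.

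Reads were recovered as FPKM times depth times the transcript length (GENCODE M21) less 210 nt. Depth was taken from low genes with 1 annotated transcript of 600 nt or more. Of 1947 values of up to 10 reads in such genes, 71.6% lay within 0.1 of whole reads, where chance gives 20%. Genes used for depth are included. For genes with several transcripts the reads are approximate. Level intervals are exact Poisson, and ratio and share intervals Clopper-Pearson, at 95%. Lacking molecular identifiers, reads are not independent molecules. In simulated independent Poisson reads the 95% ratio interval held the true ratio in at least 95.7% of draws. An exact interval does so for such reads by construction, so duplicate reads or wrong lengths could not show there. Simulated depth was recovered too, but with the same lengths and offset, so errors in these could not show. Counts at 2-fold used log2(FPKM + 1) and genes that reached 1 FPKM in at least 1 of both libraries, a scale that understates changes of low genes. With 1 library per group, no p-value was computed.

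The members and lists were chosen with earlier results of these data known. Named genes were all members, the 3 highest of each list and up to 3 with the largest differences, and the 8 genes nearest in pattern to each group's mean. Named outside that rule, after their values were seen, were Lyz1, Timd4, Vsig4, Marco, C1rb, C1ra, C1s, C2, C4a, C4b, F13a1 and Fn1. Alternatives were 3 scalings, other pseudocounts, filters and lengths, and leaving out members. Python 3.11.15, NumPy 2.4.6, pandas 2.3.3, SciPy 1.17.1 and Matplotlib 3.10.9 were used.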

Additional observations from a re-analysis of the deposited data

How the results depend on the processing

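Of 187 alternative values, 171 stayed within the main interval or, for counts, within 1.5 times. No ratio or median turned a direction that the main interval or 2-fold line supported. Counts and shares were not scored for direction. In the knockout comparison, rescaling to the same sum changed 72 genes higher and 127 lower to 120 higher and 112 lower. All 84 member ratios under 3 scalings stayed within their intervals, but each scaling only multiplies all ratios of a comparison by the same factor. Rescaling to the same sum moved the median of all genes to -0.13 for the transgenic comparison, 0.06 for the knockout comparison and -0.12 for transplanted against steady-state wild type. Leaving out Lyz2 took the monocyte ratio from 1.46 to 1.14 in the transgenic library, from 0.420 to 0.560 in the library labelled knockout and from 2.10 to 1.57 in transplanted wild type. With Lst1 at the value of 3 reads, added after the data were seen, the monocyte median in the transgenic comparison moved from 0.74 to 0.28, and 2 members rather than 3 were 2-fold higher. The percent of tissue macrophage reads without Vcam1 and Lyz2 was 13.9, 27.6, 33.9 and 28.9 in steady wild type, the transgenic library, transplanted wild type and the knockout-labelled library. With Cd68 counted as a macrophage gene and Vcam1 left out it was 13.8, 15.0, 20.1 and 21.4 in the same order, and steady wild type no longer stood apart from the transgenic library. The count of all genes at 2-fold was 206 in the transgenic, 199 in the knockout and 249 in the transplant comparison. At 5 FPKM it was 113 in the first and 132 in the second. A pseudocount of 0.1 gave 434, 421 and 504, and one of 0.5 gave 303 in the knockout comparison. The number of reads limits C1qa, Cd5l and Lst1 most. No paired analysis was possible because each group has 1 library.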
